A study of Homo sapiens with 6 samples.

Results

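The contractile and myoepithelial genes are 10 genes, MYLK, ACTA2, TAGLN, MYL9, ACTG2, TPM1, TPM2, CNN1, CALD1 and OXTR, picked by symbol from the 56478 gene rows of a count table. RNA was sequenced from BT20 cells, a human breast cancer line of the triple negative and basal kind, kept in medium with serum. The tested cells carried a hairpin against cytokeratin 5 (shCK5-22, n = 3 libraries), and the control cells carried a control hairpin (shControl, n = 3 libraries). Both hairpins sat in the same kind of knockdown vector, and 1 hairpin stands for each arm. The labels give no other treatment and no clone, and do not say whether the libraries of a group came from separate cultures.

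Myoepithelial cells form the outer, contractile layer of mammary ducts and alveoli and share much of their contractile apparatus with smooth muscle. In that apparatus oxytocin acts on its receptor to raise calcium, calmodulin then activates myosin light chain kinase, and the phosphorylated light chain lets myosin pull on filaments of muscle-type actin. Tropomyosins, caldesmon, calponin and transgelin lie along these filaments, and serum response factor (SRF) with its cofactors drives many of the genes through a promoter element called the CArG box.

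The targeted gene was measured first. KRT5 averaged 22.6 ± 1.52 CPM (counts scaled to library size with TMM factors) in shCK5-22 and 240.5 ± 8.58 CPM in shControl (SD, n = 3 each). Libraries held between 53121206 and 64855513 counts in shCK5-22 and between 47703937 and 65541734 counts in shControl. Counts of shCK5-22 replicate 1 departed more from the other 2 libraries of its group (chi-square per degree of freedom 33.7 and 19.8) than those differed from each other (5.08). The log2 fold changes of MYLK, ACTG2 and TAGLN are given with and without that replicate below. Of 6 epithelial markers of the line 3 fell, KRT5, the target itself, KRT19 and CDH1, beside 16.8% lower over all genes tested. The other 3 did not pass the test, among them EPCAM, an epithelial adhesion protein, at 236 ± 1.88 CPM in shCK5-22 and 234 ± 1.16 CPM in shControl.

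Of the 10 genes, 6 passed the filter on low counts, and of these 1 was higher and 3 were lower in shCK5-22. MYLK, the kinase of the myosin light chain, rose 1.99-fold. ACTG2, the enteric smooth muscle actin, fell 2.39-fold, TAGLN, an actin-bundling protein of smooth muscle, fell 1.67-fold, and CALD1, the thin filament protein caldesmon, fell by 0.10 on the log2 scale. The tropomyosin genes TPM1 and TPM2 did not pass the test. CNN1, encoding calponin, lay close to the counting floor, and the counts of ACTA2, MYL9 and OXTR could not be read as levels. Among all 18008 genes tested, 34.2% passed the threshold (edgeR's quasi-likelihood test, adjusted p below 0.05), 17.4% higher and 16.8% lower, and the members' count is to be read against that. MYLK, ACTG2 and TAGLN also changed by at least 0.5 on the log2 scale, as did 9.63% of all genes tested. Among the 6 members tested, the libraries of the groups did not overlap for MYLK, higher, and for ACTG2, TAGLN and CALD1, lower. The same held for 45.1% of all genes tested, 22.8% higher and 22.3% lower. CNN1, which was not tested and is outside that share, was higher without overlap.

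Promoter windows came from RefSeq (GRCh38.p14), which listed 15 windows for 8 of the 10 genes. TAGLN and MYL9 had none. The CArG box was searched over the 250 bases before each start in its strict form, CC and GG with only A or T between. This form reads the same on both strands. Near matches, such as ccctatatgg in a window of ACTA2, were not counted. The strict form stood in 2 of the 15 windows, against 1.16% of all 35116 windows in the set. These were the window of ACTG2, which had the largest fall among the members, and that of MYLK, the member that rose, and they are shown for that reason. The MYLK window lies near the 3′ end of the gene, at an internal start of the kind from which the short myosin-binding product telokin is made. CArG boxes are in capitals, all others in lower case.
ACTG2, chr2:73892758-73893007, plus strand: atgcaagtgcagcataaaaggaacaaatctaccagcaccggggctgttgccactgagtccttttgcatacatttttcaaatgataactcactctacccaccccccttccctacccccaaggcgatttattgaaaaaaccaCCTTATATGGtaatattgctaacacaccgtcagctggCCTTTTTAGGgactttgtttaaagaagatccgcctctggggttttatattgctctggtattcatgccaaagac
MYLK, chr3:123620549-123620798, minus strand: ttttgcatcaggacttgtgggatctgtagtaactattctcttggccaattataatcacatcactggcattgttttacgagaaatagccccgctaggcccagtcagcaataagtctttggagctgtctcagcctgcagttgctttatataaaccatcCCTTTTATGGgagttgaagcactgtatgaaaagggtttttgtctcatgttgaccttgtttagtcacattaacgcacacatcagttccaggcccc

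The ACTG2 boxes read CCTTATATGG, from -110 to -101 relative to the start, and CCTTTTTAGG, from -73 to -64. The MYLK box reads CCTTTTATGG, from -94 to -85 relative to the internal start. The MCAT letters GGAATG, bound by TEAD factors, were searched on both strands and stood in 3 of the 15 windows, 1 of ACTA2 and 2 of CALD1, against 11.9% of all windows. The counts are summed over a gene and do not say which start was used.

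Most genes lying wholly inside the spans of others had no counts, and the cause was not tested. For the members among them, lost reads and absent transcripts cannot be told apart. Among 18909 protein-coding genes matched to GENCODE release 29 on GRCh38, 1725 have all their exon bases inside the spans of other genes, and 1561 of these (90.5%) had 0 counts in all 6 libraries. Among the 9247 with no exon base inside another gene, the share was 12.1%. Genes that every cell uses were among those listed at 0, such as EIF4A1, a translation initiation helicase, TUBA1B, an alpha tubulin, and HNRNPA1, an RNA-binding protein. All exon bases of MYL9, OXTR and ACTA2 lie inside the spans of genes on the opposite strand, a class in which 857 of 912 genes (94.0%) were listed at 0.

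**Figure D1:**
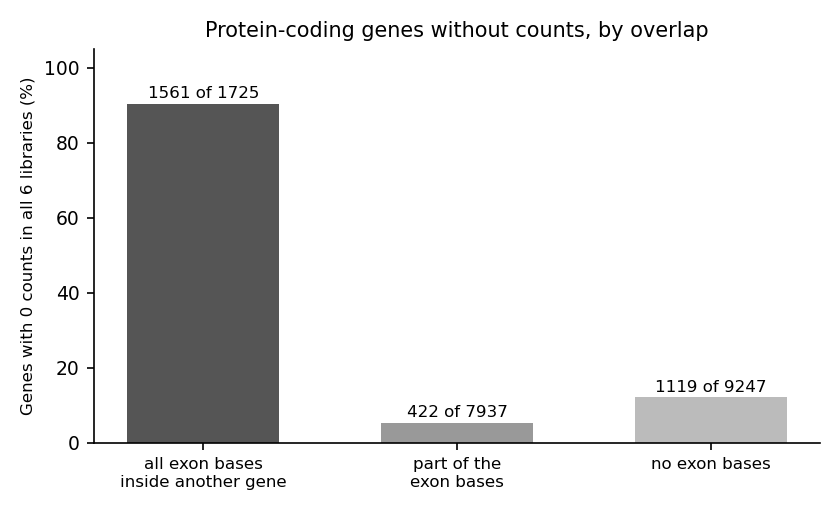
Share of protein-coding genes with 0 counts in all 6 libraries (vertical axis, percent), for genes whose exon bases lie wholly, partly or not at all inside the span of another annotated gene. Bars carry the number of genes at 0 of the number in the class. The bar for wholly enclosed genes reaches 90.5%, against 5.32% and 12.1% for the others.

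MYL9 (chr20:36541484-36551447, plus strand), the regulatory light chain that MYLK phosphorylates in smooth muscle, was listed at 0 in every library. It lies inside the span of DLGAP4-AS1. OXTR (chr3:8750408-8769628, minus strand), the oxytocin receptor, was also listed at 0 in every library and lies inside the span of CAV3. ACTA2 (chr10:88935074-88991339, minus strand), the vascular smooth muscle actin and the usual myoepithelial marker, had 10, 20 and 2 counts in shCK5-22 and 4, 22 and 2 counts in shControl. The highest ACTA2 count of each group fell in its replicate 2, and the groups overlapped. The spans of STAMBPL1, ACTA2-AS1 and FAS enclose ACTA2 between them. No level, fold change or absence is read from the counts of these 3 genes.

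MYLK (chr3:123610049-123884331, minus strand) stood at 47.0, 42.3 and 44.7 CPM in shCK5-22 replicates 1, 2 and 3, against 23.01, 21.9 and 22.5 CPM in shControl replicates 1, 2 and 3. Every shCK5-22 library was above every shControl library. The means were 44.7 ± 2.34 CPM in shCK5-22 and 22.5 ± 0.537 CPM in shControl (SD, n = 3 each), a log2 fold change of 0.99 (SE 0.0521, adjusted p = 3.67e-12). Without shCK5-22 replicate 1 the log2 fold change was 0.95. Of the MYLK exon bases 56.6% lie inside the span of another gene, and exons of the antisense gene MYLK-AS1 share 0.60% of them. MYLK-AS1 did not pass the test, at 2.56 ± 0.0111 CPM in shCK5-22 and 2.93 ± 0.316 CPM in shControl. In these bulk libraries more transcript per cell and more cells of a high-expressing kind cannot be told apart.

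ACTG2 (chr2:73892314-73919865, plus strand) had 11.7, 11.4 and 12.7 CPM in shCK5-22 and 27.5, 28.9 and 29.05 CPM in shControl. The groups were far apart, and no exon base of ACTG2 lies inside another gene. Its means were 11.96 ± 0.645 CPM in shCK5-22 and 28.5 ± 0.85 CPM in shControl, a log2 fold change of -1.25 (SE 0.0622, adjusted p = 1.38e-12), or -1.24 without shCK5-22 replicate 1. Actin genes are alike in their coding sequence, but of 3993 windows of 50 bases in ACTG2 transcripts only 12 occurred exactly in transcripts of any other gene, and the 4 genes that shared most of them held no actin.

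TAGLN (chr11:117199321-117204782, plus strand) had 11.4, 11.02 and 11.1 CPM in shCK5-22 and 17.96, 19.5 and 18.7 CPM in shControl. All 3 shCK5-22 libraries were below all 3 shControl libraries. The means were 11.2 ± 0.204 CPM in shCK5-22 and 18.7 ± 0.781 CPM in shControl, a log2 fold change of -0.74 (SE 0.0667, adjusted p = 1.70e-08), or -0.76 without shCK5-22 replicate 1. TAGLN overlaps the tail of PCSK7, a proprotein convertase gene on the opposite strand, over 11.4% of its exon bases. PCSK7 fell by 0.18 on the log2 scale, with 41.9 ± 1.40 CPM in shCK5-22 and 47.3 ± 1.62 CPM in shControl (adjusted p = 0.00427), and its part in the TAGLN count was not tested.

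CALD1 (chr7:134744252-134970728, plus strand) was the most abundant member, at 185, 176 and 172 CPM in shCK5-22 and 188, 196 and 188 CPM in shControl. The highest shCK5-22 library lay just under the lowest shControl library. The fall was small, with a log2 fold change of -0.10 (95% interval -0.17 to -0.03, adjusted p = 0.0209). The call was lost without shCK5-22 replicate 2 (adjusted p = 0.0544), without shCK5-22 replicate 3 (0.139) and without shControl replicate 2 (0.114), within a range of 0.00125 to 0.139 over the alternatives.

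**Figure D2:**
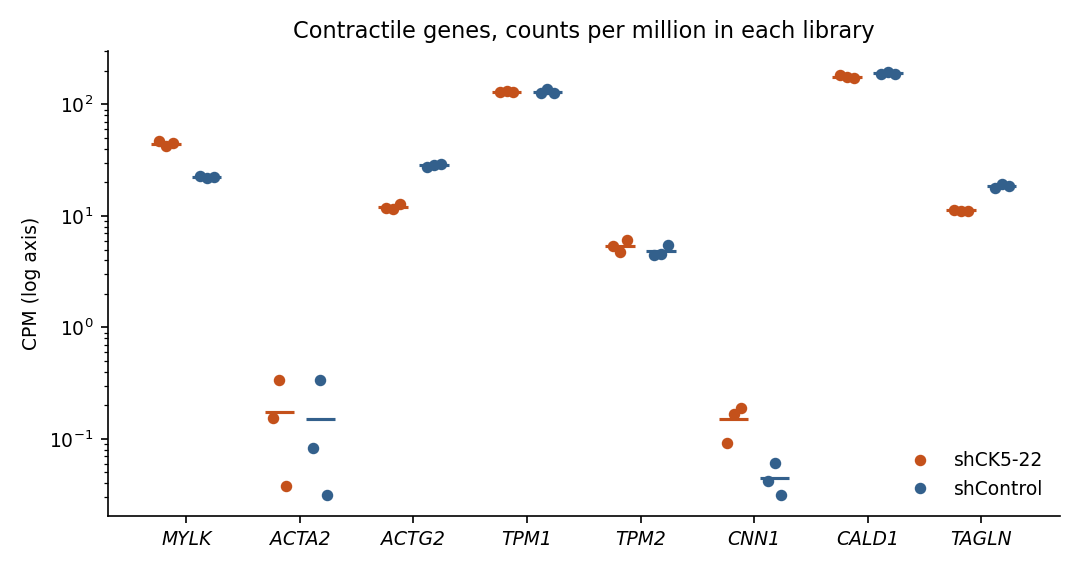
CPM (log axis) of the 8 members with counts, 1 point per library and a line at the group mean, shCK5-22 left of shControl for each gene. MYLK points are higher and ACTG2 and TAGLN points lower in shCK5-22, the TPM1 and TPM2 points overlap, and CNN1 and ACTA2 lie below 1 CPM.

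TPM1 and TPM2 encode tropomyosins found in muscle-type filaments, and counts summed over a gene do not separate muscle from non-muscle forms. TPM1 (chr15:63042632-63071915, plus strand) had 128, 132 and 131 CPM in shCK5-22 and 126, 137 and 126 CPM in shControl. Its libraries overlapped. The log2 fold change was 0.01 with a 95% interval of -0.07 to 0.08 (adjusted p = 0.907). TPM1 shares 14.2% of its windows of 50 bases with the antisense gene TPM1-AS, which makes its count less certain. TPM2 (chr9:35681992-35690121, minus strand) had 5.43, 4.75 and 6.06 CPM in shCK5-22 and 4.45, 4.60 and 5.49 CPM in shControl. These overlapped too, with a log2 fold change of 0.15, and the interval of -0.10 to 0.41 leaves room for a rise or a small fall (adjusted p = 0.366).

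CNN1 (chr19:11538717-11550323, plus strand), calponin, a late marker of smooth muscle differentiation, had 6, 10 and 10 counts in shCK5-22 and 2, 4 and 2 counts in shControl. No exon base of CNN1 lies inside another gene, so these counts can be read as low levels, of 0.1495 ± 0.051 CPM in shCK5-22 and 0.0449 ± 0.0151 CPM in shControl. The groups did not overlap. The filter on low counts removed CNN1 before testing. Most low counts in the table were even, between 86.4% and 88.8% of counts from 1 to 19, so these CNN1 counts may stand for fewer fragments than they number.

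**Figure D3:**
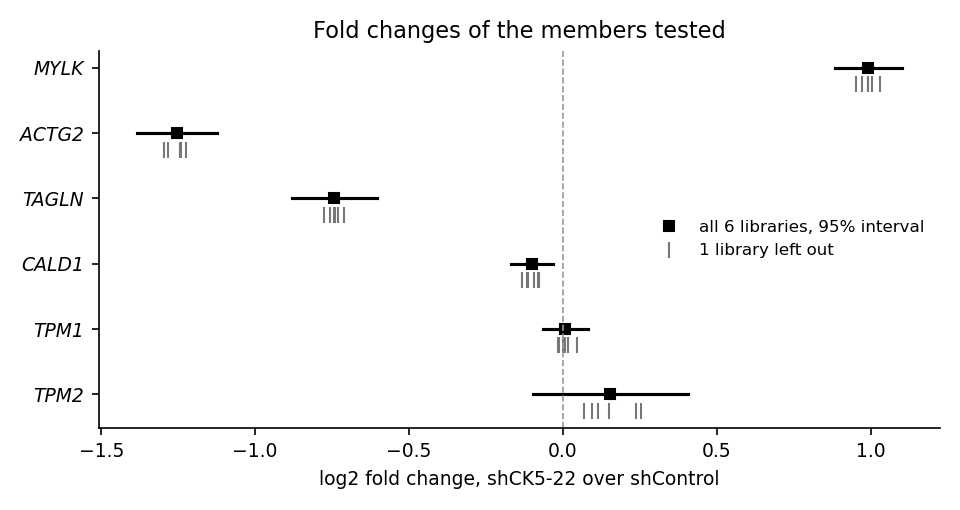
Log2 fold change of shCK5-22 over shControl for the 6 members tested. Squares with bars give the value from all 6 libraries and its 95% interval, and ticks under them give the values with 1 library left out. MYLK lies at 0.99, ACTG2 at -1.25 and TAGLN at -0.74, each with ticks close to the square, and CALD1 lies at -0.10.

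Scaled to merged exon length, the order of the members was the same in both groups except for MYLK and TPM2 at its low end. In shCK5-22 the levels, in CPM per kilobase of merged exons, were 18.04 ± 0.697 for CALD1, 10.1 ± 0.128 for TPM1, 3.14 ± 0.169 for ACTG2, 2.86 ± 0.0521 for TAGLN, 2.01 ± 0.106 for MYLK and 1.67 ± 0.201 for TPM2. In shControl they were 19.4 ± 0.494 for CALD1, 10.1 ± 0.479 for TPM1, 7.47 ± 0.223 for ACTG2, 4.78 ± 0.199 for TAGLN, 1.49 ± 0.172 for TPM2 and 1.01 ± 0.0242 for MYLK. CALD1 and TPM1 led in both groups. The order below TPM1 depends on the length used. With the exon bases outside other genes, MYLK had 4.64 CPM per kilobase in shCK5-22 and 2.34 in shControl, above TPM2 in both groups, and above TAGLN (3.23) and ACTG2 (3.14) in shCK5-22. With the longest transcript, ACTG2 had 5.79 and TAGLN 3.395 CPM per kilobase in shCK5-22.

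Within a library, shares among related genes do not depend on library size. The 4 muscle actin genes (ACTA2, ACTG2, ACTA1 and ACTC1) took 0.0742%, 0.0682% and 0.0786% of actin counts per kilobase in shCK5-22 and 0.174%, 0.171% and 0.172% in shControl. Nearly all of this was ACTG2, and ACTA2 and ACTC1 are enclosed genes whose counts are not levels. The rest belonged to the cytoplasmic actins ACTB and ACTG1, which did not pass the test. An exact permutation test of the share (two-sided) gave p = 0.1, the smallest value that 3 against 3 libraries allow.

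Among tropomyosin genes, TPM1 made up 5.12% ± 0.110 of the counts per kilobase in shCK5-22 and 5.01% ± 0.0523 in shControl (exact permutation p = 0.3), and TPM2 made up 0.845% ± 0.121 and 0.743% ± 0.0962 in these groups (exact permutation p = 0.2). TPM3 and TPM4, the widely expressed tropomyosin genes, supplied the rest. TPM3 made up 45.7% ± 0.184 in shCK5-22 and 46.5% ± 0.36 in shControl, and TPM4 made up 48.3% ± 0.0585 in shCK5-22 and 47.8% ± 0.357 in shControl, each with an exact permutation p = 0.1, the smallest possible. MYL12A and MYL12B are the regulatory light chain genes whose counts could be read, and of their counts per kilobase MYL12A, a non-muscle form, took 12.7% ± 0.0565 in shCK5-22 and 14.1% ± 0.194 in shControl (exact permutation p = 0.1, again the smallest possible). MYL9, an enclosed gene whose 0 is no level, could not be weighed in this share.

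**Figure D4:**
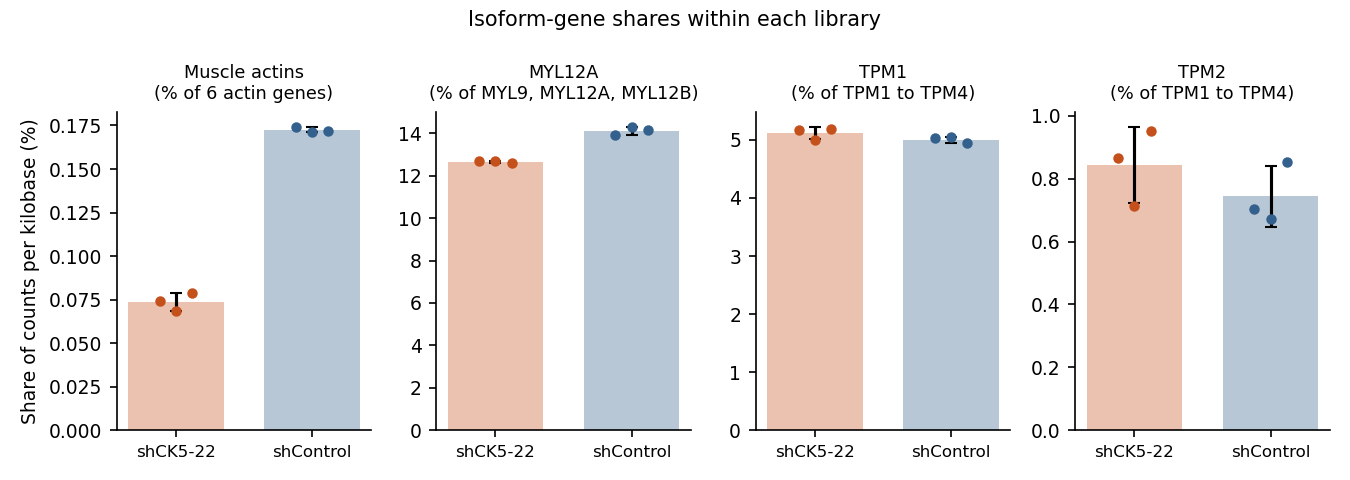
Share of counts per kilobase (percent) taken by the muscle actins among 6 actin genes, by MYL12A among the regulatory light chains (MYL9 listed at 0, which is no level), and by TPM1 and TPM2 among the tropomyosins. Points are libraries, bars group means with SD (n = 3 each), shCK5-22 left of shControl. The muscle actin points lie under 0.08% in shCK5-22 and above 0.17% in shControl, while the TPM2 points overlap.

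Around the members, myosin and actin filament genes moved in both directions. Of 8 genes for myosin II heavy chains and other light chains, 7 were tested, 1 rose and 4 fell, with a median log2 fold change of -0.16 against -0.01 over all genes tested. Of all genes tested 17.4% were higher and 16.8% lower, and the counts of this and the other lists are to be read beside those shares. MYH14, the non-muscle heavy chain IIC, fell by 1.20 on the log2 scale, with 28.8 ± 1.38 CPM in shCK5-22 and 66.1 ± 2.40 CPM in shControl (adjusted p = 4.02e-14). MYH9, the most abundant heavy chain, rose by a log2 fold change of 0.19, at 3778 ± 79.8 CPM in shCK5-22 and 3302 ± 108 CPM in shControl (adjusted p = 1.97e-05). MYL12A fell by 0.21 (adjusted p = 0.00014), and the smooth muscle heavy chain MYH11 had 0.628 ± 0.119 CPM in shCK5-22 and 0.696 ± 0.0903 CPM in shControl.

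Of 27 regulators of light chain phosphorylation, 25 were tested, 9 rose and 6 fell (median 0.08). RND3, a small GTPase, fell by 0.43 on the log2 scale, at 85.3 ± 2.12 CPM in shCK5-22 and 115 ± 5.13 CPM in shControl (adjusted p = 9.67e-09). DAPK1, a calmodulin-dependent kinase, fell by 0.36 (adjusted p = 0.000214), and PPP1R12B, a myosin phosphatase subunit, fell by 0.30 (adjusted p = 0.00286). The 9 that rose changed less than RND3, DAPK1 and PPP1R12B. Their largest rises, named after the values were seen, were those of DAPK3 (log2 fold change 0.27) and ARHGEF2 (0.26). CALM2, a calmodulin gene, was among those listed at or near 0, with 98.6% of its exon bases inside another gene.

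Of 28 actin binding and crosslinking genes, all were tested, 8 rose and 7 fell (median 0.07). FLNC, the filamin of muscle, rose by a log2 fold change of 0.67, at 108 ± 7.002 CPM in shCK5-22 and 67.9 ± 1.15 CPM in shControl (adjusted p = 8.40e-11). CNN2, a calponin of non-muscle cells, fell by 0.49, at 274 ± 6.57 CPM in shCK5-22 and 384 ± 18.3 CPM in shControl (adjusted p = 2.90e-10), and CSRP1, a LIM domain protein of smooth muscle, fell by 0.40 (adjusted p = 2.42e-09). SYNPO, an actin-bundling protein that was below the abundance set for naming and was picked after its values were seen, had the largest rise of the list, at 7.59 ± 0.509 CPM in shCK5-22 and 2.01 ± 0.143 CPM in shControl (log2 fold change 1.92, adjusted p = 6.26e-11). Of the 6 other actin and tropomyosin genes 5 were tested and 0 passed, and ACTC1, an enclosed gene, was listed at 0. Of these 5, 0 had an unadjusted p below 0.05 in edgeR, and DESeq2 and limma-voom called 0.

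SRF itself stood at 145 ± 4.36 CPM in shCK5-22 and 146 ± 6.88 CPM in shControl (log2 fold change -0.00, adjusted p = 0.956). Its cofactors MRTFA and MRTFB, listed as MKL1 and MKL2, had log2 fold changes of -0.09 and -0.04 and did not pass (adjusted p = 0.0572 and 0.5002). Of the 11 genes of SRF and its cofactors 9 were tested, 2 rose and 1 fell. ELK3, a partner factor of SRF, rose by a log2 fold change of 0.34, at 107 ± 7.92 CPM in shCK5-22 and 84.2 ± 5.105 CPM in shControl (adjusted p = 0.00042), and FHL2, a LIM-only cofactor, fell by 0.27 (adjusted p = 4.99e-06). The other riser was FHL1, a further LIM-only protein, named after its values were seen, at 3.45 ± 0.111 CPM in shCK5-22 and 1.15 ± 0.0628 CPM in shControl.

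The pathway from the oxytocin receptor to calcium runs through Gq and phospholipase C. Of 19 such genes 16 were tested, 7 rose and 4 fell (median 0.24), beside 17.4% higher and 16.8% lower over all genes tested. DESeq2 called 2 lower and limma-voom 3, with 7 higher by each. The risers include RGS2, with 100% of its exon bases inside other genes, so its counts are not read as a level. PLCB4, a Gq-activated phospholipase C, rose by a log2 fold change of 2.36, at 25.5 ± 0.834 CPM in shCK5-22 and 4.94 ± 0.557 CPM in shControl (adjusted p = 2.93e-15). GNAQ, the Gq alpha subunit that activates this enzyme, moved the other way, at 19.9 ± 0.242 CPM in shCK5-22 and 42.6 ± 0.786 CPM in shControl (log2 fold change -1.10, adjusted p = 2.97e-13). ITPR2, an inositol trisphosphate receptor, rose by a log2 fold change of 0.40 (adjusted p = 2.79e-05). OXT and AVPR1A, the oxytocin gene and a related vasopressin receptor, were listed at 0 in all libraries.

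Of 22 other myoepithelial and basal markers 19 were tested, 3 rose and 10 fell (median -0.11), beside 17.4% higher and 16.8% lower over all genes tested. KRT14, a basal keratin, fell by 1.15 on the log2 scale, at 9.71 ± 1.29 CPM in shCK5-22 and 21.6 ± 1.02 CPM in shControl (adjusted p = 7.53e-10). COL17A1, a hemidesmosome collagen, was at 82.6 ± 2.78 CPM in shCK5-22 and 133 ± 6.37 CPM in shControl, and JAG1, a Notch ligand, at 96.4 ± 3.03 CPM in shCK5-22 and 151 ± 1.59 CPM in shControl. Named after their values were seen, the 3 that rose were LAMB3, ITGA6 and CAV1, with log2 fold changes of 0.26, 0.22 and 0.14. LAMB3 stood at 1876 ± 56.6 CPM in shCK5-22 and 1562 ± 57.0 CPM in shControl. TP63, the master regulator of basal cells, had 38, 46 and 42 counts in shCK5-22 and 24, 45 and 32 counts in shControl and did not pass.

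**Figure D5:**
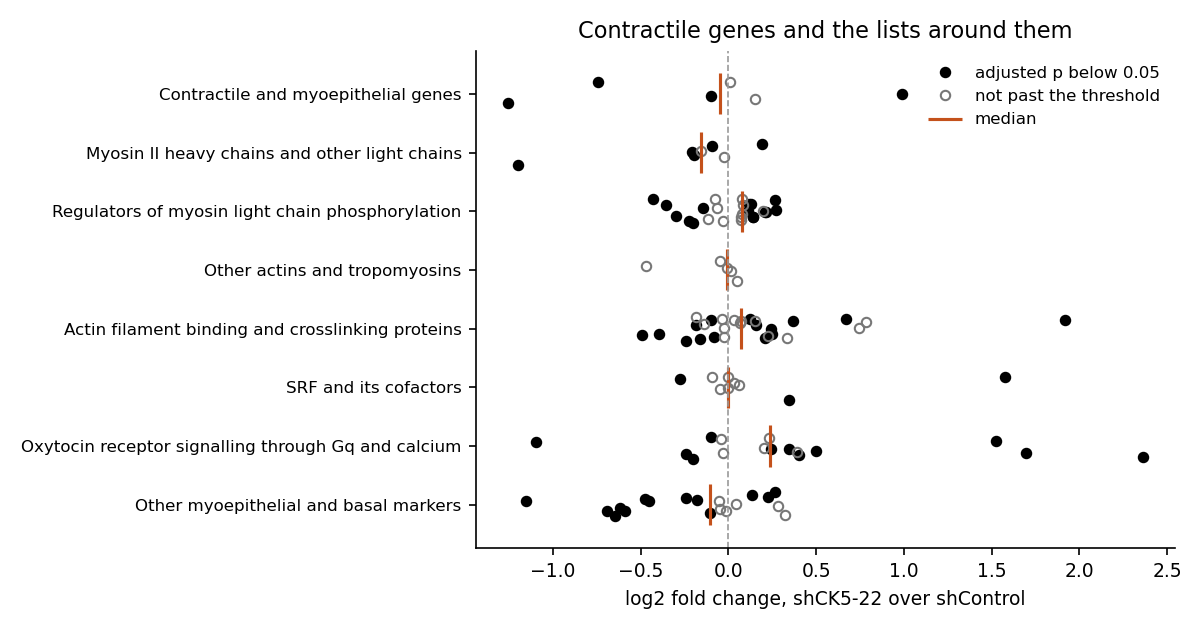
Log2 fold change of shCK5-22 over shControl for every tested gene of the contractile members and the lists around them. Filled points have an adjusted p below 0.05, open points do not, and lines mark list medians. Members lie on both sides of 0, from ACTG2 at -1.25 to MYLK at 0.99, the largest fall among the myosin genes is that of MYH14 at -1.20, and PLCB4 at 2.36 and GNAQ at -1.10 lie at opposite ends of their list.

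Markers of other contractile cells varied in level. Of 15 smooth muscle and pericyte markers 10 were tested, 3 rose and 0 fell. DESeq2 and limma-voom also called 0 lower. At an unadjusted p below 0.05, edgeR and limma-voom had 0 lower and DESeq2 had 1. The summed level of the 15 markers was between 41.2 and 44.2 CPM in shCK5-22 and between 37.1 and 39.8 CPM in shControl. Of this SYNM, an intermediate filament protein, gave 23.6 ± 1.34 CPM in shCK5-22 and 23.2 ± 1.61 CPM in shControl. Desmin (DES) had 4, 2 and 0 counts in shCK5-22 and 2, 0 and 2 counts in shControl. The smooth muscle cofactor MYOCD had 0 counts in every shCK5-22 library and 2 in every shControl library. Of the MYOCD exon bases 67.6% lie inside other genes. PLN, a gene wholly inside another, was listed at 0. The risers, named after their values were seen, were CSPG4, ABCC9 and the pericyte receptor PDGFRB. PDGFRB had 80, 46 and 66 counts in shCK5-22 and 0, 6 and 4 counts, near the floor, in shControl. CASQ2, which was not tested, went the other way, with 2, 0 and 0 counts in shCK5-22 and 6, 6 and 12 counts in shControl.

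Of 9 fibroblast markers 5 were tested, 1 rose and 2 fell, with sums between 28.4 and 29.3 CPM in shCK5-22 and between 33.1 and 34.8 CPM in shControl. COL1A1, a fibrillar collagen chain, made up most of it and fell by 0.25 on the log2 scale (adjusted p = 0.00055), while PDGFRA and THY1 were listed at 0. THY1 lies wholly inside other genes, so its 0 is not read as absence. PDGFRA has 69.4% of its exon bases there, and whether this bears on its 0 was not tested. Among all protein-coding genes lying partly inside others, 5.32% were listed at 0. Of 10 leukocyte and endothelial markers 6 were tested, 0 rose and 1 fell (0 higher also at an unadjusted p below 0.05 and by DESeq2 and limma-voom, while limma-voom made 0 lower calls), with sums between 19.9 and 32.2 CPM in shCK5-22 and between 24.4 and 32.3 CPM in shControl. The endothelial cadherin CDH5 made up most of these sums, at 22.2 ± 5.23 CPM in shCK5-22 and 21.2 ± 2.30 CPM in shControl, and CD68, wholly inside other genes, was listed at 0, which is no level either. Of 6 epithelial markers, all were tested, 0 rose and 3 fell (0 higher also at an unadjusted p below 0.05 in edgeR and by DESeq2 and limma-voom): KRT5 itself, KRT19, a luminal keratin, by 0.63, and CDH1, the epithelial cadherin, by 0.37 on the log2 scale. The part of these levels in the member results was not tested.

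The genes with profiles most alike were sought among 10459 genes with a mean of at least 5 CPM, by the root mean square difference of centred log2 CPM over the 6 libraries. For MYLK these were IL6, a cytokine, with a difference of 0.0182, SOCS2, a suppressor of cytokine signalling, with 0.0462, and ADAMTS9, a secreted metalloproteinase, with 0.0462. For TAGLN they were RAC2, a small GTPase, with 0.0195, HELZ2, a helicase, with 0.0326, and ELF3, an epithelial transcription factor, with 0.0352. IL6 stood at 22.4 CPM in shCK5-22 and 11.5 CPM in shControl, and RAC2 at 66.5 CPM in shCK5-22 and 111 CPM in shControl. Their log2 fold changes were 0.96 and -0.73, near those of MYLK and TAGLN. For such genes the profile is mostly the step between the groups. The measure therefore finds genes of like fold change and shows no further link.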

How the data were processed

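The authors deposited whole-number counts for each gene in 1 table of 6 libraries. The notes by the submitters on processing name cutadapt, STAR, SAMtools, Cufflinks and GRCh38. The sources used here do not give the counter, its annotation or its use of strand. Of 56505 rows, 27 held a calendar date for a symbol and were left out (0.167% to 0.175% of counts). A count of 3, the floor, is 0.0459 to 0.063 CPM, and covers counting error only. shCK5-22 was compared with shControl by edgeR 4.0.16 (R 4.3.3): filterByExpr, TMM, robust quasi-likelihood F test, Benjamini-Hochberg over 18008 genes, tested on simulated data. P-values are two-sided and measure the spread between libraries, which may be technical. SEs follow from the F statistic. Gene models and overlaps came from GENCODE release 29, which may differ from the authors' annotation. All 168 list genes matched, 2 through an older symbol. From each list were named the 3 called genes of at least 5 CPM without overlap that changed most. The members and lists were chosen with earlier results of these data known. Alternatives tried were RLE, upper quartile and library size scaling, other filters, a threshold of 0.01, DESeq2 1.42.0, limma-voom (limma 3.58.1), a replicate block, each library left out, other gene lengths and, added after seeing the data, halved counts and exons outside other genes.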

Additional observations from a re-analysis of the deposited data

How the results depend on the processing

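The calls of MYLK, ACTG2 and TAGLN kept their direction and their side of the threshold under all 16 alternatives run, with log2 fold changes from 0.95 to 1.03, from -1.30 to -1.23 and from -0.78 to -0.71. CALD1 lost its call in 4 of 16, those named above and the threshold of 0.01. The counts of members called were 1 higher throughout and 2 to 3 lower. Of 27 genes followed, 26 kept their call in every alternative run. The labels state no pairing of libraries by replicate number. Deviations of same-numbered libraries correlated at 0.0164, 0.0517 and -0.00678 over genes, which cannot tell whether they were handled together. With the replicate block 6743 genes passed in place of 6153, and the member counts were 1 higher and 3 lower. The halved counts gave 6156 calls.

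Levels per length moved with the length used. With the longest transcript, levels in CPM per kilobase were 4.45 in shCK5-22 and 2.24 in shControl for MYLK. In the same order of groups they were 3.395 and 5.68 for TAGLN, 5.79 and 13.8 for ACTG2, and 32.9 and 32.8 for TPM1. They were 3.42 and 3.07 for TPM2, 0.0809 and 0.0243 for CNN1, and 41.5 and 44.5 for CALD1. ACTA2 counts scaled the same way gave 0.130 in shCK5-22 and 0.112 in shControl, and these values are not levels. With exons outside other genes the levels were 4.64 in shCK5-22 and 2.34 in shControl for MYLK. For TAGLN they were 3.23 and 5.39, and for TPM1 14.6 and 14.5. The length itself makes these shifts, and fold changes do not use it. Depth limits CNN1, which lay too near the floor of 3 counts for a test, and the counts of MYL9, OXTR and ACTA2 give no level at any depth reached here.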
